A study of Drosophila melanogaster with 4 samples.

Results

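In Drosophila melanogaster S2 cells, 33 transcripts stood at 0.5 times their DMSO level or less after 15 min of radicicol. They were chosen by that value among 6509 named genes with at least 40 counts in DMSO and a mean of at least 20 counts, out of 14869 gene IDs in all. Levels are in CPM, a gene's count scaled by the sum of gene counts of its library. A further 34 IDs without a symbol and 14 IDs named as rRNA, 7SL RNA, snoRNA or snRNA passed the same limits and are left out of the 33. S2 is a cell line of embryonic origin with haemocyte character, grown here in Schneider medium at 25 °C. Growing cells received the solvent DMSO (labelled 0 min), or 40 µM radicicol, an inhibitor of the chaperone Hsp90 dissolved in DMSO, for 15, 30 or 60 min. Poly(A) RNA was sequenced in 4 libraries, 1 for each condition, so no value has a replicate error and no difference between conditions has a test.

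The level of an mRNA is set by its synthesis and its decay. In animal cells decay of most mRNAs begins when the CCR4-NOT and PAN2-PAN3 complexes shorten the poly(A) tail, and goes on by decapping and digestion from the 5′ end by the exonuclease that pcm encodes in the fly, or from the 3′ end by the exosome. Transcripts of regulators of signalling and transcription are often short lived, so that their level follows synthesis closely. Libraries of steady-state RNA such as these measure the level alone.

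Gene counts summed to 19153476 in DMSO and to 28614983, 30859475 and 31028233 at 15, 30 and 60 min. Reads not aligned made up 44.1% of all reads in DMSO and 18.2%, 21.5% and 17.8% at 15, 30 and 60 min. All 11 haemocyte markers examined were past the count filters, and their summed level was 8046, 10834, 10316 and 13505 CPM in the same order. Each interval below is an exact 95% interval for counting error alone, because PCR copies without molecular identifiers are not separate molecules. In RNA from a whole culture, fewer cells that express a gene and less RNA in each cell cannot be told apart. The ratios of 15, 30 and 60 min to DMSO all share the 1 DMSO library, so decay in the first 15 min and a value particular to that library cannot be told apart.

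The rule itself fixed the low values at 15 min, which are given as a description. The 33 were 0.507% of the 6509 genes. Their ratios were spread well apart from those of most genes: 15 had a ratio of at most 0.1, a further 3 were between 0.1 and 0.2, 10 between 0.2 and 0.3, and 5 between 0.3 and 0.5. Another 5 genes lay between 0.5 and 0.6, and 42 between 0.6 and 0.7. Just inside the limit were RNaseMRP:RNA at 38.9% of DMSO, fend at 41.7%, Adar at 45.3%, CG9098 at 46.4% and RNaseP:RNA at 49.0%. Just outside were Vago at 52.9%, alphaTub85E at 53.7%, betaTub85D at 56.7%, CG8501 at 58.3% and slbo at 60.0%. For 29 of the 33 the counting interval of the ratio lay wholly below 0.5.

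**Figure D1:**
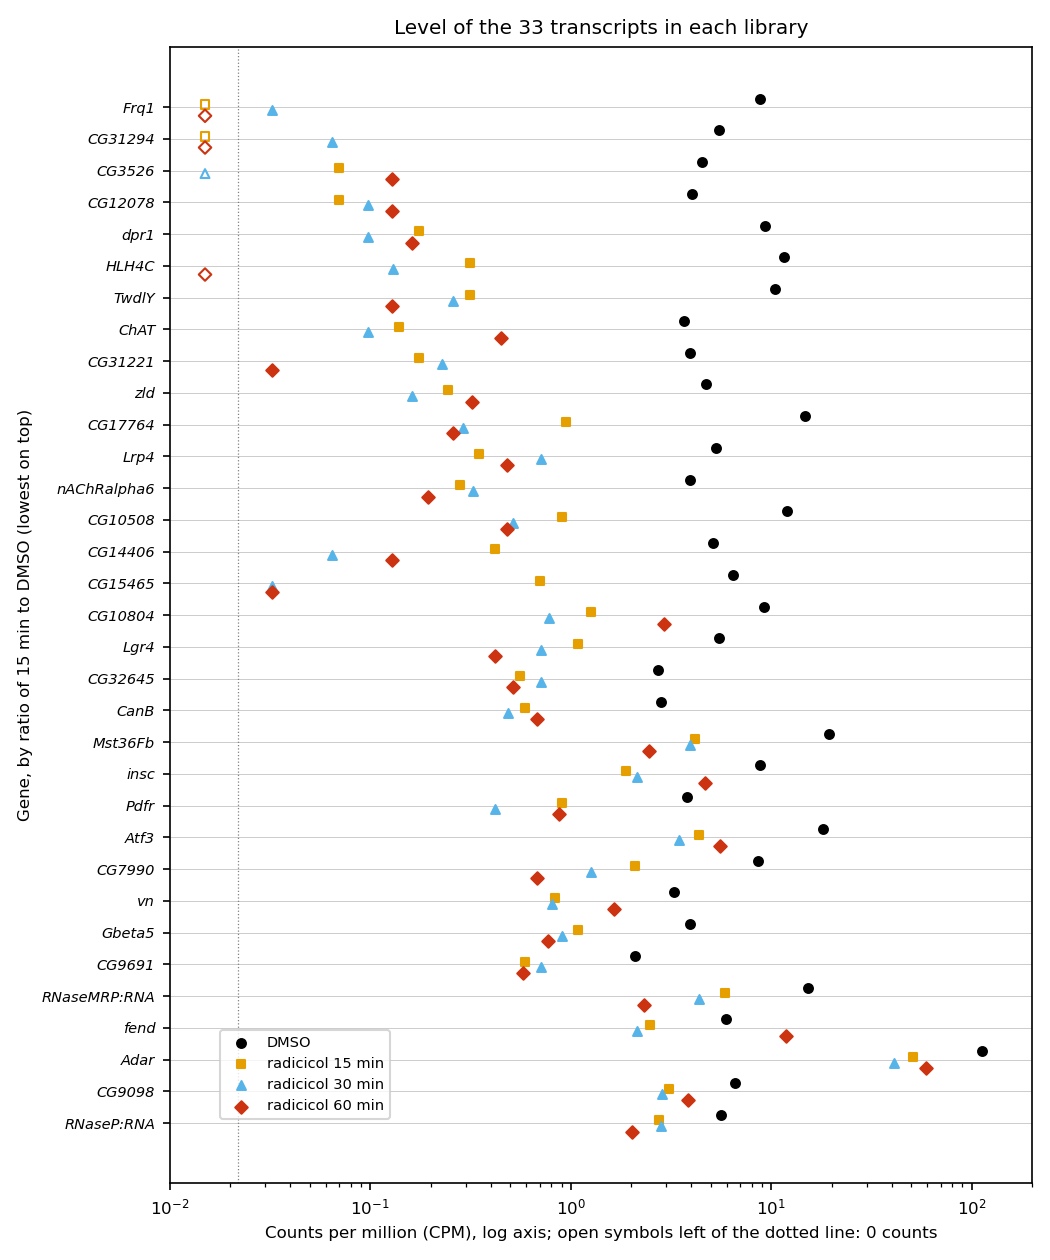
Level of each of the 33 transcripts in CPM on a log axis, 1 symbol per library and 1 row per gene, with open symbols for 0 counts. The DMSO symbol is the rightmost in every row but that of fend, whose 60 min library holds 11.8 CPM against 5.95 CPM in DMSO.

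The transcripts with the lowest ratios were all but missing from the 3 radicicol libraries. Frq1, which encodes a neuronal calcium sensor of the frequenin family, had 169 counts in DMSO and 0, 1 and 0 at 15, 30 and 60 min. With 3 counts set in place of 0 at 15 min, it was 84.2-fold lower there. The counting interval of its ratio reached up to 1.48% of DMSO. Its neighbour and close paralog Frq2 had 2 counts in DMSO and 1, 0 and 1 after it. Both genes were near 0 in radicicol, and whether reads were split between such similar genes was not tested. CG31294 had 105 counts in DMSO and 0, 2 and 0 in the later libraries. On the same terms it was 52.3-fold lower at 15 min, with an interval up to 2.39% of DMSO.

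dpr1, whose product is an immunoglobulin-domain protein of neuron surfaces, had 178 counts in DMSO and 5, 3 and 5 at 15, 30 and 60 min. ChAT, the choline acetyltransferase that makes the transmitter acetylcholine, had 70 counts in DMSO and 4, 3 and 14 in the later libraries. nAChRalpha6, a subunit of a receptor for that transmitter, had 75 counts in DMSO and 8, 10 and 6. For these 3 genes of neurons the DMSO library held 5 or more times the count of any radicicol library although it was the shallowest. Lrp4, a receptor of the LDL receptor family, had 102 counts in DMSO and 10, 22 and 15 later, so it fell short of 5 times at 30 min.

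The low group also held transcription factor genes and a cuticle gene. HLH4C, a bHLH transcription factor gene, had 221 counts in DMSO and 9, 4 and 0 at 15, 30 and 60 min. zld, which encodes the pioneer factor that opens chromatin in the early embryo, had 91 counts in DMSO and 7, 5 and 10 later. TwdlY, of the Tweedle family of cuticle proteins, had 201 counts in DMSO and 9, 8 and 4. At 60 min zld, the highest of the 3, stood at 6.78% of its DMSO CPM.

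The remaining genes near or below a ratio of 0.1 were known by number only. CG17764 had the highest DMSO level among them, 14.7 CPM, with 0.944, 0.292 and 0.258 CPM at 15, 30 and 60 min. CG10508 had 12.1 CPM in DMSO and 0.909, 0.518 and 0.483 CPM later. CG15465 had 124 counts in DMSO and 20, 1 and 1, but 100% of its annotated exon length lies in exons of another gene on its strand, so its count is uncertain. CG3526, CG12078, CG31221 and CG14406 had from 75 to 98 counts in DMSO and from 0 to 12 in any radicicol library.

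The genes of the middle range, of mixed roles, stood between 13.6% of DMSO at 15 min for CG10804 and 28.4% for CG9691. Atf3, which encodes a bZIP factor induced by stress, had 18.1 CPM in DMSO and 4.37, 3.47 and 5.54 CPM at 15, 30 and 60 min. vn, a neuregulin-like ligand of the EGF receptor, had 3.29 CPM in DMSO and 0.839, 0.810 and 1.64 CPM later. Pdfr, the receptor of the neuropeptide PDF of clock neurons, had 3.81 CPM in DMSO and 0.909, 0.421 and 0.870 CPM. All 3 stood at 0.5 times DMSO or less in each radicicol library, vn at 60 min only just, with 49.97% of its DMSO level.

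insc, which orients asymmetric divisions of neuroblasts, had 8.82 CPM in DMSO and 1.89, 2.14 and 4.67 CPM at 15, 30 and 60 min. Mst36Fb, named as a male-specific transcript, had 19.5 CPM in DMSO and 4.16, 3.95 and 2.45 CPM. CG10804 had 9.24 CPM in DMSO and 1.26, 0.778 and 2.93 CPM. Here insc and CG10804 had their highest radicicol value at 60 min and Mst36Fb its lowest. The others of this range were Lgr4, a leucine-rich repeat receptor coupled to G proteins, Gbeta5, a G protein beta subunit, CanB, a regulatory subunit of the phosphatase calcineurin, CG32645, CG7990 and CG9691. These 6 stood between 19.8% (Lgr4) and 28.4% (CG9691) of DMSO at 15 min. Of the exon length of Lgr4, 29.2% overlaps genes on the opposite strand, from which its reads cannot be told apart if strand was not counted.

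Among the 5 members nearest the limit were the most abundant one and both noncoding RNAs. Adar, the enzyme that edits adenosine to inosine in neuronal transcripts, had 112 CPM in DMSO and 50.7, 40.8 and 58.9 CPM at 15, 30 and 60 min. With 2145 counts in DMSO its ratio at 15 min is known to between 42.4% and 48.5%. RNaseMRP:RNA, the RNA of an enzyme that processes ribosomal RNA, had 15.2 CPM in DMSO and 5.91, 4.37 and 2.32 CPM. RNaseP:RNA, the RNA of the enzyme that trims tRNA precursors, had 5.64 CPM in DMSO and 2.76, 2.82 and 2.03 CPM. Both of these noncoding RNAs were lowest at 60 min, and both left the rule when the relation of the ratio to exon length was removed, at 52.5% and 67.8% of DMSO. The other 31 members are protein coding and all 31 stayed within the rule under that correction.

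**Figure D2:**
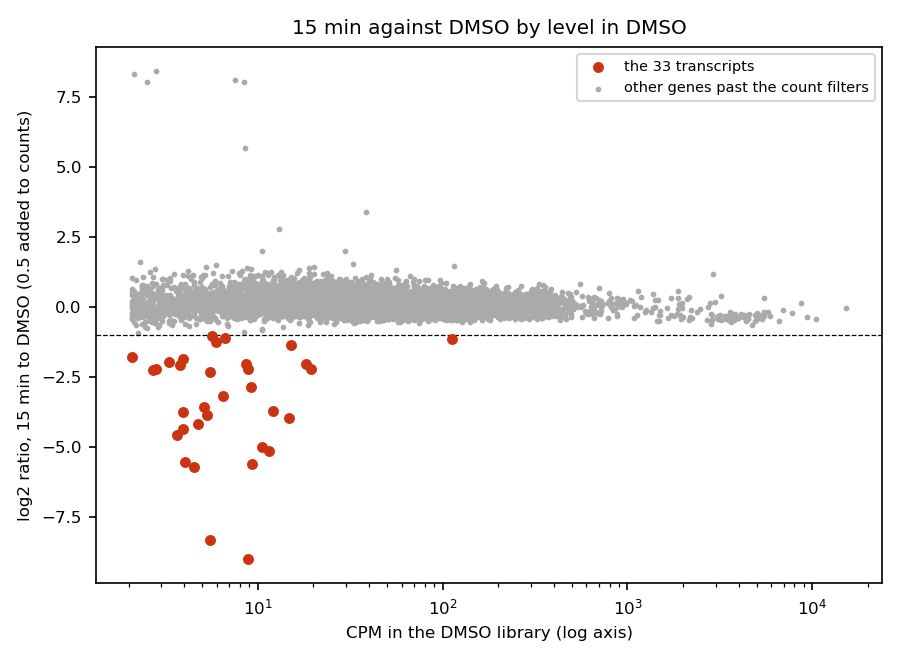
log2 ratio of 15 min to DMSO (0.5 added to each count) against CPM in DMSO on a log axis, 1 point per gene past the count filters; the dashed line marks a ratio of 0.5. The 33 transcripts lie at the left, with a median of 5.64 CPM in DMSO against 40.4 CPM for the other genes.

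The 33 were weakly expressed even in DMSO. Their median level there was 5.64 CPM (quartiles 3.92 and 9.29), against 40.4 CPM (18.1 and 85.3) for the other 6476 genes past the filters, and 32 of the 33 lay below that median. Per length the difference was as wide: the median was 46.1 DMSO counts per kb of exon for the 33 and 357 for the others. The median exon length was 3583 bases for the 33 and 2049 for the others. The same count limits were set on the earlier library of each later step. From 15 to 30 min they found 4 of 6767 genes (0.0591%) at 0.5 or less, and from 30 to 60 min 79 of 6803 (1.16%). Members under 40 counts at 15 min could not enter the step to 30 min. Among them CG15465 went from 20 counts to 1 and CG14406 from 12 to 2. At a ratio of 0.25 or less there were 25 genes at 15 min against DMSO and 0 in each later step. At a ratio of 0.1 or less there were 15 genes against DMSO and 0 in each later step.

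In the opposite direction, 123 of 6767 genes (1.82%) with at least 40 counts at 15 min were at least 2-fold higher than in DMSO. With TMM normalisation, which lowers all log2 ratios of 15 min to DMSO by 0.16, the numbers were 66 higher and 35 lower in place of 123 and 33. Only 13 of the higher genes were past 4-fold, against 25 of the lower ones. Of those 13, 11 are heat shock or related chaperone genes: the 6 Hsp70 copies, Hsp68, Hsc70-2, Hsp26, Hsp27 and Hsp23. The other two were the noncoding lncRNA:alphagamma-element:CR32865 and CG30357.

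The 30 and 60 min libraries took no part in the choice apart from the mean count, though the DMSO library they are set against did. At 30 min all 33 were again at 0.5 times DMSO or less, as were 0.568% of the 6509 genes. At 60 min 29 of the 33 were, beside 11.2% of all genes, and the exceptions were CG9098, insc, Adar and fend. In all, 0.507% of genes were at 0.5 or less at both times, 33 in number, of which 29 were among the 33 transcripts. Summed over the 33, the level was 348 CPM in DMSO and 89.5, 72.5 and 104 CPM at 15, 30 and 60 min.

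**Figure D3:**
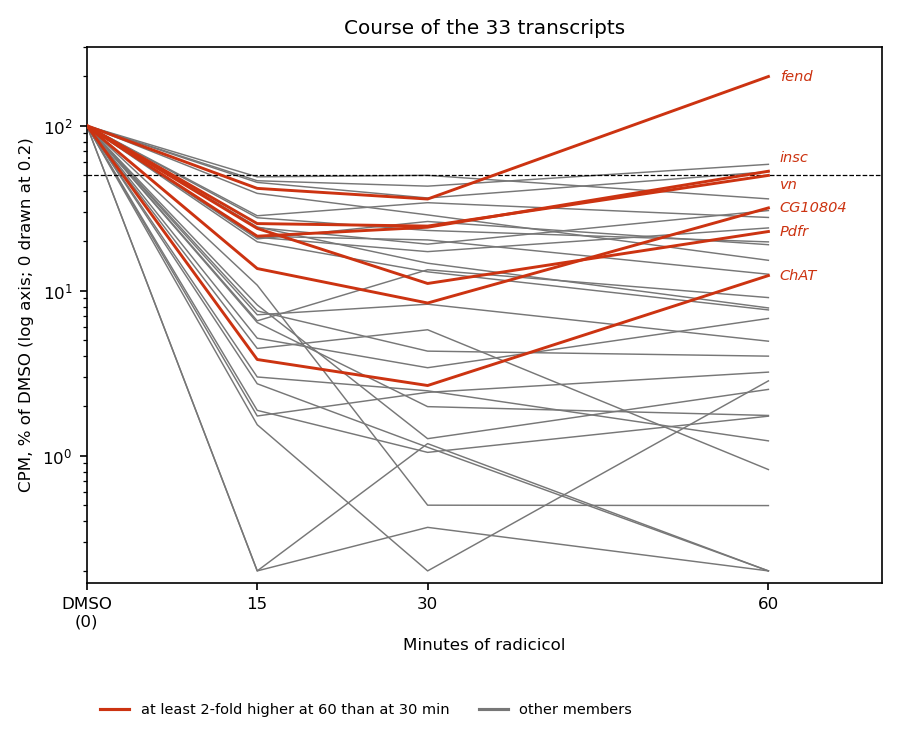
CPM of each of the 33 transcripts as % of its DMSO level, on a log axis, over minutes of radicicol, with 0 drawn at 0.2%; the dashed line marks 50%. Most lines run close to level from 15 to 30 min, and the 6 red lines are the genes at least 2-fold higher at 60 than at 30 min.

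From 15 to 30 min the levels changed little beside the first step. The counting interval of the 30 to 15 min ratio included 1 for 26 of the 33, lay below 1 for 7 and above 1 for 0. No member was at least 2-fold higher at 30 min, beside 0.415% of all genes. At least 2-fold lower at 30 min, with the interval below 1, were CG15465, CG14406, CG17764 and Pdfr (4 of 33, and 0.108% of all genes). The choice used the 15 min library, so low values there were favoured. The median log2 ratio of 30 to 15 min was -0.28 for the 33 and -0.06 for the other genes.

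As arithmetic only, the ratio at 15 min can be turned into a halving time, on the assumption that no new transcript was made after radicicol was added. It came to between 2.49 min for CG3526 and 14.6 min for RNaseP:RNA over the 31 members with counts at 15 min, with a median of 6.41 min. The rule chose low ratios at 15 min, so these times are short by construction and are no measured decay rate. With an unchanged halving time the ratio of 30 min to DMSO would be the square of the 15 min ratio. Its counting interval lay above that square, taken without counting error, for 27 of the 31 and below it for 0. The choice makes the square low too and so favoured values above it, and the rate of decay was not tested.

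The step from 30 to 60 min uses neither library of the choice. For 21 of the 33 its counting interval included 1. At 60 min 6 of the 33 were at least 2-fold higher than at 30 min with the interval above 1, beside 6.3% of all genes. They were fend, ChAT, CG10804, insc, Pdfr and vn. fend had 11.8 CPM at 60 min and 2.14 CPM at 30 min, a ratio of 5.53 (4.25 to 7.30), and at 60 min was the only member above its DMSO level, at 1.99 times it (1.61 to 2.47). CG10804 had a ratio of 3.77 (2.38 to 6.18), insc 2.19 (1.62 to 2.97), Pdfr 2.07 (1.03 to 4.36) and vn 2.03 (1.23 to 3.42). The ratio of ChAT, 4.64 (1.30 to 25.2), rests on 14 and 3 counts. At this step the ratio moved with exon length over all genes, and with that relation removed fend (3.41) and CG10804 (2.40) kept the call.

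None of the 33 was at least 2-fold lower at 60 than at 30 min with the interval below 1, beside 1.11% of all genes. Intervals below 1 but ratios above 0.5 were found for RNaseMRP:RNA with 0.53 (0.39 to 0.71), CG7990 with 0.54 (0.30 to 0.93) and Mst36Fb with 0.62 (0.46 to 0.83). CG31221 (0.14) and TwdlY (0.50), with few counts, and Lgr4 (0.59), Lrp4 (0.68) and RNaseP:RNA (0.72) had intervals that included 1. HLH4C had 0 counts at 60 min and 4 at 30 min. With the length relation removed CG7990 (0.40), Lrp4 (0.34), nAChRalpha6 (0.30) and CG31221 (0.096) were lower at 60 min. Set against 15 min, which the choice used, 6 of the 33 were at least 2-fold lower at 60 min (3.93% of all genes) and 4 at least 2-fold higher (8.27%). The median log2 ratio of 60 to 30 min was -0.10 over the 33 and -0.12 over the other genes (0.5 added to counts).

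**Figure D4:**
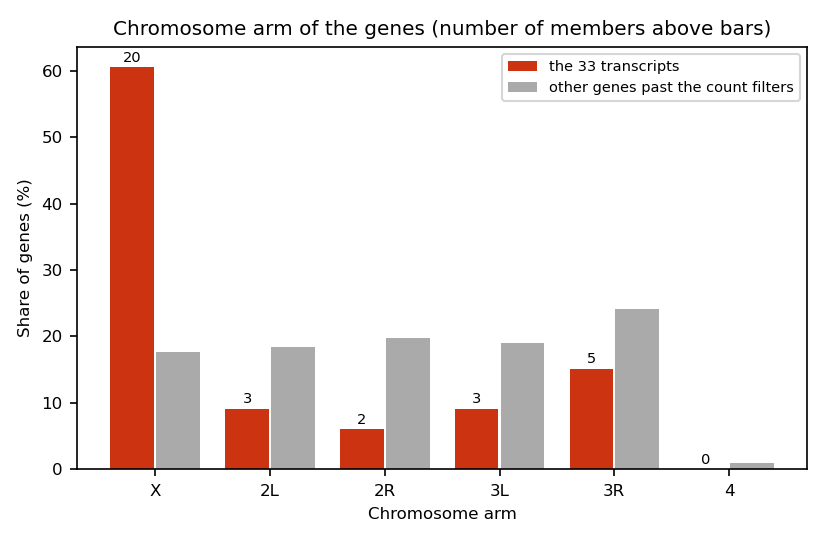
Share of the 33 transcripts (left bars, with their number) and of the other genes past the count filters (right bars) on each chromosome arm, in %. The X chromosome holds 20 of the 33, 60.6%, beside 17.6% of the other genes.

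A property that the rule did not use was the chromosome. Of the 33 genes 20 lie on the X chromosome, 60.6%, against 17.6% of the other 6476 genes. They were Frq1, CG3526, HLH4C, TwdlY, zld, CG17764, Lrp4, CG14406, CG15465, CG10804, Lgr4, CG32645, CanB, Pdfr, Atf3, CG7990, Gbeta5, CG9691, fend and Adar. Arms 2L, 2R, 3L and 3R held 3, 2, 3 and 5 members. The X share was 8 of the 15 genes at a ratio of 0.1 or less and 12 of the other 18. X-linked genes as a whole were not lower at 15 min: the median log2 ratio to DMSO was 0.14 for the other genes on X, beside 0.12 on 2L, 0.12 on 2R, 0.16 on 3L and 0.12 on 3R. Of the 123 genes that were at least 2-fold higher, 17.1% lie on X. The share is a description of 33 genes, without a test. Among genes with 10 to 39 DMSO counts, 7 of the 29 at a ratio of 0.1 or less lie on X (24.1%), as do 17.2% of all genes in that range.

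The flanking genes with enough counts did not share the low values. The nearest gene on each side of every member made 65 genes, none of them a member. Of these, 32 were past the count filters, and their level at 15 min went from 76.4% to 177% of DMSO with a median of 113%. The other 33 had fewer than 40 counts in DMSO, and 29 of the 65 reached 40 counts in no library. Beside Frq1, ari-1 stood at 177% of DMSO at 15 min, and beside zld, CG12702 stood at 131%. Below the filters some were low too: ckd, next to CG12078, had 19 counts in DMSO and 1, 1 and 0 later, and SK, next to CanB, had 32 in DMSO and 21, 20 and 15. Exons of 25 of the 33 overlap no exon of another gene, and 21 of the 33 have no other counted gene across their span. On the same strand 15.1% of the exon length of ChAT, 9.24% of insc and 5.56% of Adar overlap other genes, so part of their counts is uncertain.

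Lists of genes by function, chosen with earlier results of these data known, were set beside the 33. Of 13 matched neuronal markers Frq1, ChAT and dpr1 alone were past the filters, and all 3 are members, beside 0.507% of all genes. They passed only through the DMSO library, where they are high, so the filters favoured this overlap. elav, with 28 counts in DMSO and 135 at 15 min, did not pass. The other 10 matched neuronal markers summed to 3.65 CPM in DMSO and to 7.83, 6.38 and 23.2 CPM at 15, 30 and 60 min, so they did not share the course of the 3. Most of the last value was elav, with 16.0 CPM, while VGlut was at 0 in each library and Syt1 had 1 count in all. Of 10 epidermal and cuticle markers TwdlY alone was past the filters, again through its DMSO count. The other 9 summed to 0.940 CPM in DMSO and to 1.08, 1.13 and 1.32 CPM later, with TwdlX and TwdlZ, the neighbours of TwdlY, at 4 and 0 counts in DMSO. Of the muscle, fat body, gut, testis and ovary markers, 10 were past the filters and none was a member, beside 0.507% of all genes. Whether other cells in the DMSO culture have a part in the low group was not tested.

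Most regulators known for short-lived transcripts were not low. Of 25 such genes past the filters Atf3 and vn are members, beside 0.507% of all genes. The list was chosen with earlier results of these data known, so this share is a description. At least 2-fold higher at 15 min were 4, namely rho, vri, upd3 and aop, beside 1.82% of all genes. With TMM library sizes rho alone was past 2-fold. The median log2 ratio of the 25 to DMSO was 0.61, against 0.14 for the other genes. kay, the Fos gene of the fly, stood at 160% of DMSO, puc, a phosphatase that restrains JNK, at 152%, and stg, which encodes the Cdc25 phosphatase, at 100%. stg had 111 CPM in DMSO and 111, 58.7 and 58.6 CPM at 15, 30 and 60 min. Of 15 Enhancer of split and Bearded genes 2 were past the filters and none was a member, beside 0.507% of all genes.

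Genes of the mRNA decay machinery were measured in part. Of 42 symbols on that list 33 were matched, and the decapping genes Dcp1 and Dcp2 were among those not matched. All 33 matched genes were past the filters, and none was at 0.5 or less at 15 min, beside 0.507% of all genes. Past 2-fold was 1, the translational repressor gene brat, beside 1.82% of all genes. It had 42.9 CPM at 15 min and 19.3 CPM in DMSO. The median log2 ratio of the 33 decay genes was 0.23. Of the 9 exosome genes in the list 6 stood below DMSO at 15 min, the lowest being Rrp42 at 71.0%, and 3 above it, namely Mtr3 at 104%, Dis3 at 117% and Rrp6 at 118%. Values below DMSO were common: the lower quartile of the log2 ratio was -0.09 for the 6476 genes other than the 33 transcripts. pcm stood at 134%. Tis11, whose product binds AU-rich elements and brings in deadenylases, had 10.7 CPM in DMSO and 21.1, 20.8 and 87.9 CPM at 15, 30 and 60 min. By 60 min 6 of the 33 decay genes were at least 2-fold higher than at 30 min and none was at least 2-fold lower, beside 6.3% and 1.11% of all genes. With the exon length relation removed 2 were higher, beside 1.38% of all genes, and none lower.

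**Figure D5:**
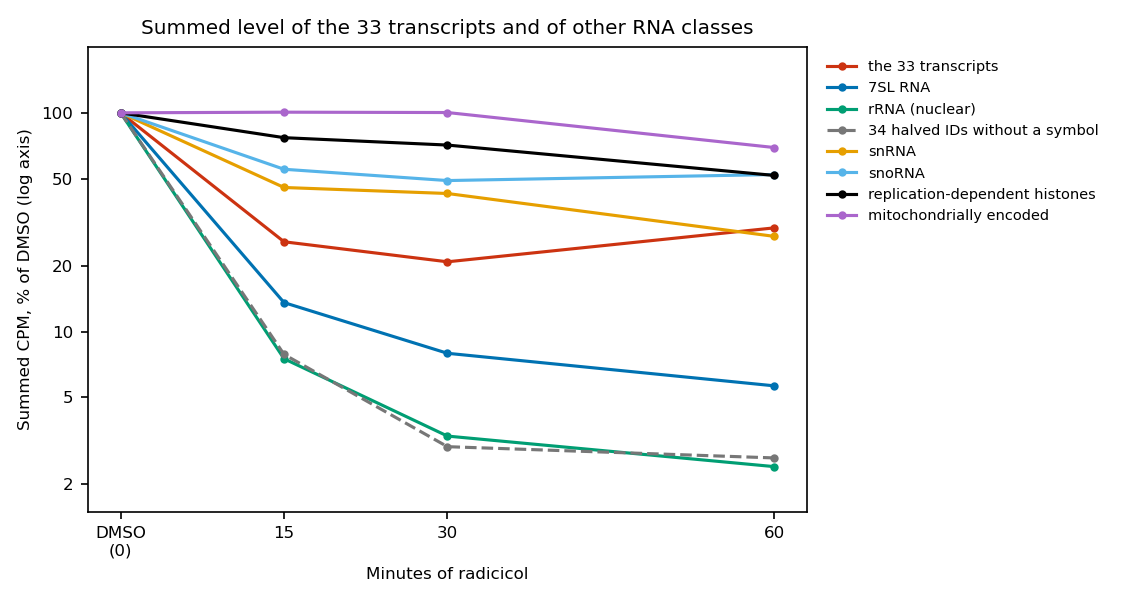
Summed CPM of the 33 transcripts and of other RNA classes as % of DMSO, on a log axis, over minutes of radicicol. Nuclear rRNA and 7SL RNA lie below the 33 at 15, 30 and 60 min, at 7.51% and 13.6% at 15 min, while mitochondrially encoded transcripts stand at 101%.

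RNAs that carry no poly(A) tail were also lower in the radicicol libraries. Features named as nuclear rRNA summed to 406 CPM in DMSO and to 30.5, 13.5 and 9.80 CPM at 15, 30 and 60 min. The 2 genes of 7SL RNA, the RNA of the signal recognition particle, summed to 326 CPM in DMSO and to 44.2, 25.9 and 18.4 CPM. Both classes were lower still at 60 min than at 15 min. The sum of the 33 was 104 CPM at 60 min and 89.5 CPM at 15 min, but without Adar and fend the other 31 summed to 32.9 CPM at 60 min and 36.3 CPM at 15 min. The members RNaseMRP:RNA and RNaseP:RNA are transcripts of this kind. snRNA stood at 45.6%, snoRNA at 55.2% and the replication-dependent histones at 77.0% of DMSO at 15 min, and mitochondrially encoded transcripts at 101%. The 34 low IDs without a symbol, whose RNA class is not known here and whose ratio at 15 min the same limits chose, summed to 1265 CPM in DMSO and to 99.4, 37.6 and 33.4 CPM later. All 1345 IDs without a symbol together stood at 98.8% of DMSO at 15 min. The DMSO library held more rRNA, 7SL RNA, snRNA and snoRNA and more unaligned reads than the radicicol libraries. The part of either in the low values of the 31 protein-coding members was not tested.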

How the data were processed

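Poly(A) RNA of 4 S2 cultures was made into Illumina TruSeq libraries, per the labels' protocols. The authors deposited their raw counts of reads per gene without normalisation, in 1 table for each library. Bowtie, HTSeq and the genome build dm3 are named in the submitters' processing notes, whereas the sources used here give no version, strand setting or annotation release. Each table held 14869 gene IDs and 5 entries that name no gene, which stayed out of library sizes (no-feature reads were 14.7 to 16.4% of aligned reads). Symbols were matched for 13524 IDs. Chromosome, exon length, overlap and neighbours came from a later annotation (Ensembl 115), so no coordinates are printed.

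CPM used the sum of gene counts. Ratios carry Clopper-Pearson intervals of the pair's counts (scipy 1.17.1), and 3 counts were set in place of 0 for fold values. Calls are by size with no test, since 1 library per condition leaves no residual degrees of freedom. edgeR 4.0.16 and DESeq2 1.42.0 gave only alternative library sizes, and a lowess curve (statsmodels 0.14.6) the exon length correction. The rule and intervals were tested on simulated data. The members, the gene lists and the alternatives were chosen with earlier results of these data known. Genes were named by a rule: members with 0 counts at 15 min, lowest ratios, highest DMSO levels, highest and lowest later ratios, list members, genes nearest the limit, and neighbours. Other members and list genes were named after their values were seen.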

Additional observations from a re-analysis of the deposited data

How the results depend on the processing

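The count of members was 35 with TMM and with DESeq2 library sizes, 38 with a DMSO minimum of 20 counts, 29 with the whole counting interval below 0.5 and 31 with the exon length relation removed, against 33. With a minimum of 100 counts it was 20, of which 16 stayed at 0.5 or less at 30 and 60 min, 3 were at least 2-fold higher at 60 than at 30 min, and the median log2 ratio of that step was -0.32; fewer genes could enter. With the length relation removed 2 were higher and 4 lower at 60 than at 30 min, in place of 6 and 0, and the median was -0.26 in place of -0.10. The genes at least 2-fold higher at 15 min numbered 66 with TMM and DESeq2 sizes, 64 with the length relation removed and 38 with the whole interval above 2, in place of 123. An alternative chosen after seeing the data, the same limits at 30 min in place of 15 min, gave 37 genes that included all 33, and 2 of the 37 were lower at 60 than at 30 min. The X share lay between 56.8% and 64.5% under these 7 alternatives. No paired analysis was possible because each condition has 1 library and the labels give no replicate numbers. With under 20 counts in each radicicol library for 12 of the 33, the later steps of those genes carry wide counting error.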

Other observations

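Low values at 15 min continued below the count filters. Among 867 named genes with 10 to 39 counts in DMSO, 29 (3.34%) stood at 0.1 times DMSO or less at 15 min, and 20 of the 29 did so at 30 min too. Several encode developmental regulators, named here after their values were seen. The T-box gene bi had 37 counts in DMSO and 5, 1 and 1 at 15, 30 and 60 min, and the zinc finger gene disco had 24 counts in DMSO and 3, 0 and 1 later. Antp, a Hox gene, had 16 counts in DMSO and 2, 1 and 1, and the homeobox gene Optix had 14 and 1, 0 and 1. On the same strand 50.1% of the exon length of Antp overlaps exons of other genes, so its count is uncertain. Wnt4, a Wnt ligand gene, had 21 counts in DMSO and 2, 2 and 3. AstA, which encodes a neuropeptide precursor, had 33 counts in DMSO and 4, 2 and 1.

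Of these 29, 7 (24.1%) lie on the X chromosome, beside 17.2% of the 867 and 60.6% of the 33 transcripts. In the other direction, among 777 named genes with 15 to 58 counts at 15 min, a range scaled for depth, 3 had a DMSO level of 0.1 times the 15 min level or less. At counts this low the ratios carry wide counting error.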
